A study of Mus musculus with 12 samples.

Results

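The epidermal differentiation complex is a long cluster of genes on mouse chromosome 3 whose products build and seal the outer layers of stratified epithelia. Its members were taken by symbol: every array probe whose accession led to a gene of the late cornified envelope (Lce), small proline-rich (Sprr) or S100a families, or to 1 of 10 single-copy genes of the cluster, counted as a probe of the complex. The array carried 50 such probes for 46 genes, of 32678 genes in all: 14 Lce genes, 12 Sprr genes, 14 S100a genes and 6 single-copy genes (Lor, Ivl, Rptn, Tchhl1, Crct1 and Flg2). The gene table lists 64 symbols that fit the rule. The other 18, among them Flg, Hrnr, Tchh and Crnn, had no matched probe. In all 44 genes were above background often enough to be tested, and Flg2 and Sprr2h were not.

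Levels were measured in 12 colonies grown in culture from dental epithelium of the labial cervical loop, the stem cell niche of the continuously growing mouse incisor. The 3 genotypes were wild type (WT), Bmi1 null (Bmi1-, lacking the Polycomb protein Bmi1) and double null (Bmi1-;Ink4a/Arf-, lacking Bmi1 and also the locus Cdkn2a, whose products Ink4a and Arf halt the cell cycle). Each genotype had 4 replicates, each a single colony on 1 one-colour Agilent array, from mice of mixed genetic background. The number and age of the animals are not stated in the material used here. The p-values therefore measure the spread between these colonies. Single colonies grown in vitro were taken as the model, and tissue was not analysed here.

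When a keratinocyte of a stratified epithelium stops dividing and moves up, it builds a cornified envelope, a shell of proteins joined by transglutaminases under the cell membrane. Involucrin (Ivl) is an early scaffold, Sprr proteins act as cross-bridges, and loricrin (Lor) and the Lce proteins are added late. The S100a genes encode small calcium-binding proteins with roles inside and outside the cell, and repetin (Rptn) and Tchhl1 belong to the S100 fused type, which joins an S100 domain to a long tail. In the mouth such programmes are known from the gums, the hard palate and the tongue, whereas the dental epithelium of the incisor normally makes enamel-forming ameloblasts.

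A level is the log2 signal of a probe minus the 75th percentile of its array, so 0 is a fairly bright probe. Values are listed in replicate order, which is 1, 3, 4 and 5 for wild type and 1 to 4 for each mutant. A gene was called higher or lower at a limma adjusted p (Benjamini-Hochberg over 31064 genes) under 0.05. Against wild type the median change of all genes was itself -1.24 with Bmi1 null and -1.41 with double null, so changes against wild type are given relative to that median. The calls, standard errors and adjusted p-values beside them test the change before the median was removed.

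Some facts about the arrays bear on every comparison. Wild-type arrays had a narrower spread of signals, with an interquartile range of 2.49 to 2.62 log2 units, while Bmi1 null arrays had 4.32 to 4.69 and double null arrays 4.04 to 4.93. Of 926 olfactory receptor probes, 96.4% to 99.5% were well above background on wild-type arrays against 49.0% to 71.7% on the mutant arrays. This difference cannot be told apart from genotype. Median signals were 63.2 to 209.6 over a local background of 17.0 to 23.0, and the number of arrays limits the precision. Bmi1 stood at -0.89 to 0.18 in wild type and at -2.79 to -2.14 on all mutant arrays, and Cdkn2a, the locus removed in double null, was well above background on all 4 Bmi1 null arrays and on none of the other 8. All 12 epithelial markers were well above background on all 12 arrays. On wild-type arrays 90.7% to 96.9% of all probes were, so this does not tell the labelled cell type from others there. Lymphoid (6), endothelial (5) and melanocyte and glia (6) markers were each called lower in both mutants against wild type, as were 5 of 6 ameloblast markers, where 58.3% (Bmi1 null) and 59.9% (double null) of all genes were called lower. Among them Ambn, Enam, Mmp20, Ms4a1 and Tyr passed the filter through wild type alone, so their lower calls were largely set by the filter. Arrays lay on 5 slides, of which 1 held all genotypes.

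Between the mutants, the called genes of the complex were all lower in the double null. Of 44 tested genes 0 were higher, 9 lower and 35 not called by limma, where 2.75% of all genes tested were called higher and 4.80% lower. At an unadjusted p under 0.05, 0 members were higher and 22 lower, beside 2598 and 4203 of 31064 genes. The 9 were Lor, Crct1, Tchhl1, Sprr1b, Sprr2b, Sprr2e, Sprr2k, Sprr4 and S100a7a. The median change of the members was -1.78 log2 units, beside -0.07 for all genes. In 8 members every double null array lay below every Bmi1 null array, which held for 7.43% of all genes, and in 0 members above, beside 6.35%.

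The 4 double null colonies differed among themselves, and leaving out the fourth changed the count. The array of replicate 1 had 1336 outlier spots, beside 55 to 132 on the other arrays. Over all genes replicate 1 was the highest of the 4 in 34.5%, and in 6.98% of the members. It lay more than 2 log2 units above the median of the other 3 in 4.63% of all genes. Double null replicate 4 had the highest level of the 4 in 30 of the 43 members measured on all 4 arrays (69.8%, beside 17.3% of all genes). It lay more than 2 log2 units above the median of the other 3 in 19 of the 43 (44.2%, beside 1.20% of all genes), namely 12 Lce genes, 4 single-copy genes and 3 S100a genes. These counts were made after the values had been seen. Without that colony limma called 22 members lower between the mutants (12 Lce, 5 Sprr, 4 single-copy and 1 S100a gene), beside 4.61% of all genes, and 0 higher, beside 2.32%. In 16 members, 13 of them Lce genes, that colony lay above all 4 Bmi1 null arrays, which held for 18.8% of all genes. The targeted genes did not set it apart: its Bmi1 level was -2.79 and its Cdkn2a probe was not well above background. The summed level of 12 mesenchymal markers moved with it, at 5.37 there, 2.51 to 3.36 in the other double null colonies, 2.34 to 3.38 in Bmi1 null and 3.61 to 3.88 in wild type. The part of these markers in the result was not tested. In bulk RNA of a colony, fewer cells of a kind and less RNA per cell cannot be told apart.

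The count between the mutants also moved with other choices. With the slide as a block limma called 0 members lower, beside 0.634% of all genes, and 0 higher, beside 0.315%. With that block 15 members were lower at an unadjusted p under 0.05, beside 3225 of 31064 genes. Within slide 2 the single double null array was below the single Bmi1 null array in 38 of 44 members (median difference -1.77). Over all genes tested that array was below in 17972 of 31064 (median -0.17). Within slide 4, which held double null replicates 1 and 4, their mean was below the single Bmi1 null array in 39 of 44 (median -1.03). Over all genes tested their mean was below in 18632 of 31064 (median -0.15). Normexp background correction gave 4, the 8 mutant arrays alone 3, and leaving out Bmi1 null replicate 3 or 4 or double null replicate 2 or 3 gave 5, 4, 4 and 5.

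**Figure D1:**
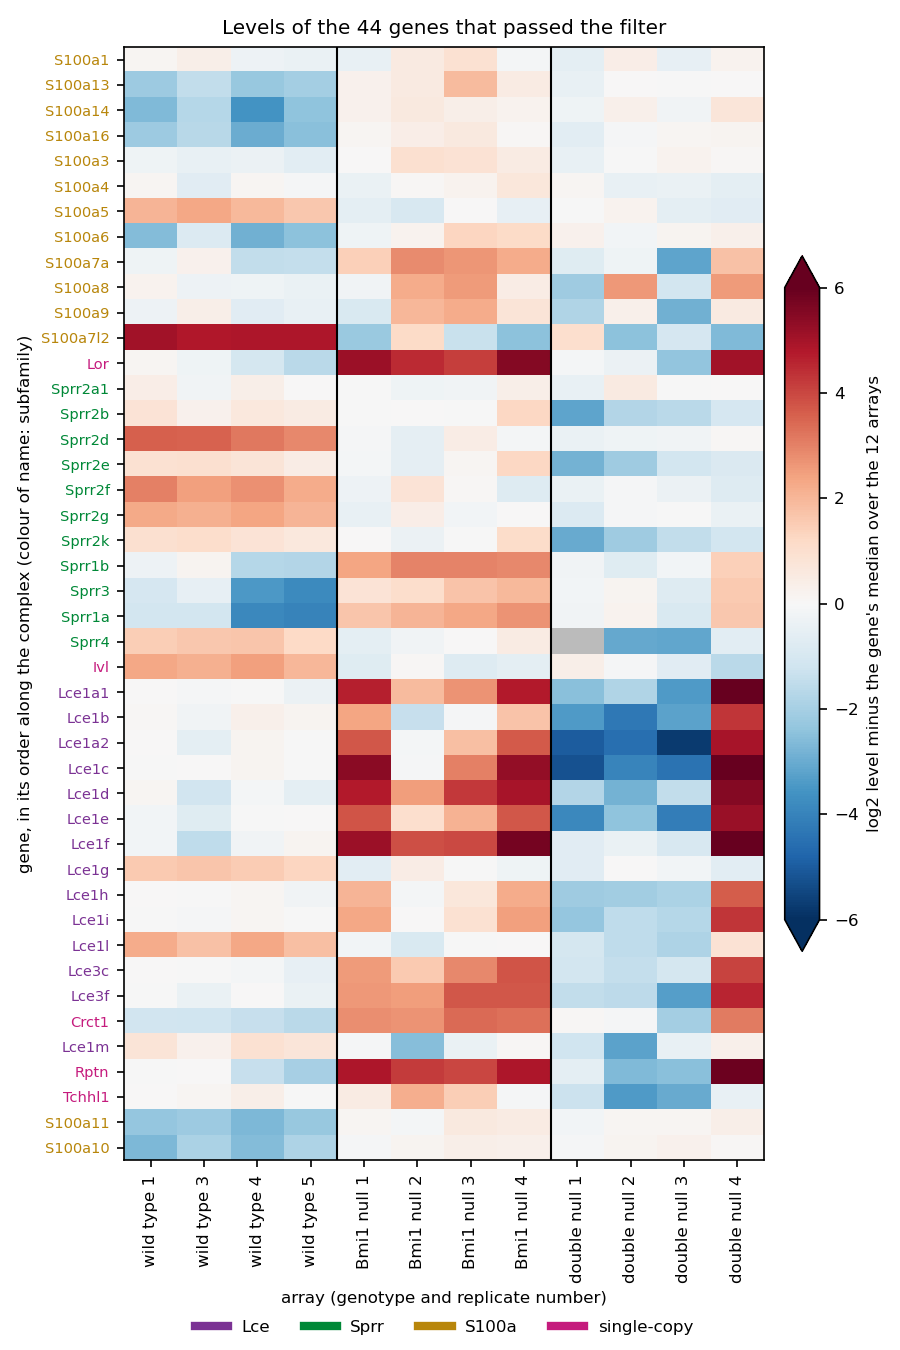
Levels of the 44 tested genes on the 12 arrays, each row being a gene in its order along the complex and each column an array. Colour is the log2 level minus the median of that gene over the 12 arrays, and grey marks the 1 missing value (Sprr4 in double null replicate 1). Most of the Lce block, Lor, Rptn and Crct1 are high in the Bmi1 null columns and in double null replicate 4. Double null replicates 1 to 3 are low for most Lce genes. For Lor and Crct1 replicates 1 and 2 are near the median and replicate 3 is low. For Rptn replicate 1 is near the median and replicates 2 and 3 are low.

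Against wild type, calls went in both directions. In Bmi1 null colonies 18 members were called higher, 9 lower and 17 were not called, where 25.2% of all genes were higher and 58.3% lower. Relative to the median of all genes, 34 of the 44 members lay above it, with a member median of 2.67. All 4 Bmi1 null arrays lay above all wild-type arrays in 20 members (23.8% of all genes) and below them in 10 (56.3%). In double null colonies 8 were higher, 14 lower and 22 not called, where 25.5% of all genes were higher and 59.9% lower, and the member median was 1.16. All 4 double null arrays lay above all wild-type arrays in 7 members (24.6% of all genes) and below them in 13 (56.9%). With the array median as the scale these counts became 26 higher and 8 lower for Bmi1 null, and 14 higher and 12 lower for double null. Without double null replicate 4 the lower members against wild type numbered 24 in place of 14, of which 13 were Lce genes, beside 58.7% of all genes lower. Both comparisons share the wild-type arrays.

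Among the single-copy genes, Lor, Rptn and Crct1 were high in Bmi1 null colonies. Lor, the main protein of the late envelope, read 0.78, 0.44, -0.38 and -0.95 on the wild-type arrays, 5.80, 5.14, 4.81 and 6.19 on those of Bmi1 null and 0.58, 0.31, -1.71 and 5.72 on those of double null. All Bmi1 null arrays were above all wild-type arrays. Double null replicates 1 to 3 lay in or below the wild-type range and replicate 4 lay inside the Bmi1 null range. The change relative to all genes was 6.75 ± 1.15 (SE, n = 4 per group, limma adjusted p = 0.000668) in Bmi1 null, and 2.66 ± 1.15 in the double null (limma adjusted p = 0.320). Between the mutants Lor fell by 4.26 ± 1.15 in double null colonies (limma adjusted p = 0.0419). That call ended in 12 of 19 alternatives, with the slide as a block among them (limma adjusted p = 0.209), while without replicate 4 the difference was -5.76 ± 0.58.

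Rptn, a matrix protein of the envelope, read -2.99, -2.91, -4.35 and -4.96 on the wild-type arrays, 1.88, 1.25, 1.04 and 1.91 on those of Bmi1 null and -3.54, -5.58, -5.45 and 2.91 on those of double null, where it was well above background on 2 of 4 arrays. It rose with Bmi1 null by 6.56 ± 1.44 relative to all genes (limma adjusted p = 0.00397). Between the mutants the difference was -4.44 ± 1.44 with a limma adjusted p of 0.0840, and -6.38 ± 0.58 (limma adjusted p = 0.000111) without double null replicate 4. Crct1, named for its cysteine-rich C-terminus, read 0.88, 0.85, 0.68 and 0.45 on the wild-type arrays, 4.84, 4.74, 5.44 and 5.36 on those of Bmi1 null and 2.12, 1.98, 0.02 and 5.17 on those of double null. Double null replicates 1 and 2 lay between wild type and Bmi1 null, replicate 3 below both, and replicate 4 inside the Bmi1 null range. Crct1 rose by 5.62 ± 0.76 relative to all genes in Bmi1 null colonies (limma adjusted p = 0.000154). Between the mutants it fell by 2.77 ± 0.76 (limma adjusted p = 0.0441), a call that ended in 12 of 19 alternatives.

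Ivl and Tchhl1 behaved otherwise. Ivl, the early scaffold of the envelope, read -0.09, -0.31, 0.02 and -0.44 on the wild-type arrays, -3.13, -2.34, -3.20 and -3.0 on those of Bmi1 null and -2.06, -2.51, -3.10 and -4.06 on those of double null. Every mutant array lay below every wild-type array, and the mutants overlapped. Relative to all genes its change was -1.48 ± 0.37 with Bmi1 null (limma adjusted p = 1.92e-05) and -1.32 ± 0.37 with double null (limma adjusted p = 1.63e-05), both called lower. Between the mutants the difference was -0.01 log2 units, with a 95% interval of -0.81 to 0.78. Tchhl1, a relative of trichohyalin, read -4.04, -3.95, -3.72 and -4.12 on the wild-type arrays, -3.57, -1.89, -2.59 and -4.14 on those of Bmi1 null and -5.37, -7.50, -7.10 and -4.53 on those of double null, the last well above background on 2 of 4 arrays. All double null arrays were the lowest ones, replicate 4 included. It fell between the mutants by 3.08 ± 0.62 (limma adjusted p = 0.0103), but the value was -0.26 (limma adjusted p = 0.678) with normexp background correction. Its change against wild type, -0.76 ± 0.62 relative to all genes in double null colonies (limma adjusted p = 0.00524), turned sign with quantile normalization and in the processed values of the authors.

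**Figure D2:**
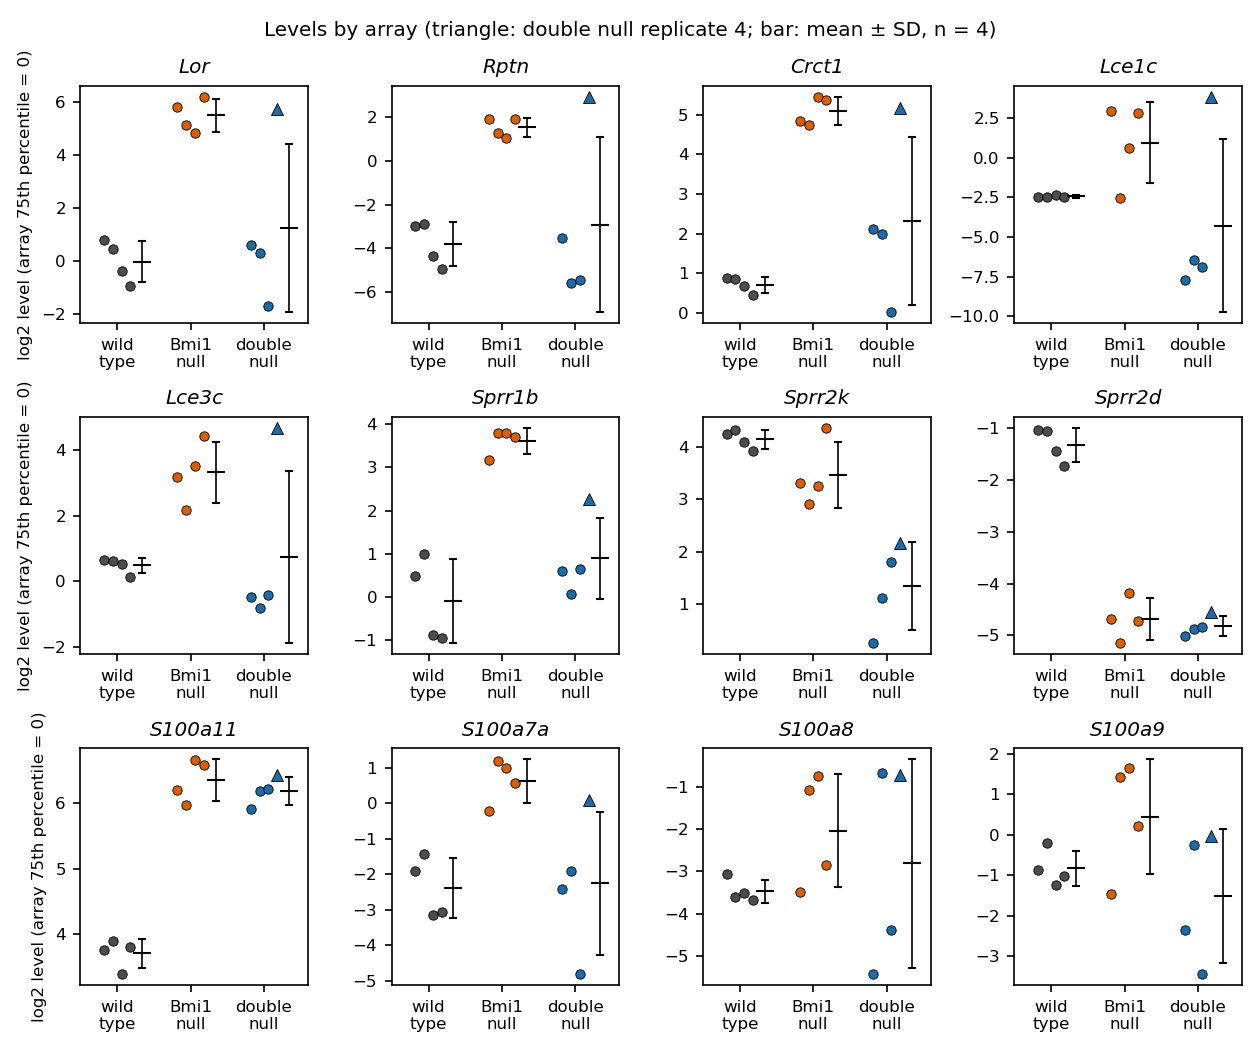
Levels of 12 genes of the complex by genotype, in log2 signal minus the 75th percentile of the array. Each point is 1 array, the triangle is double null replicate 4, and the bar is the mean ± SD of the 4 arrays. For Lor, Rptn, Crct1, Lce1c and Lce3c the triangle lies with or above the Bmi1 null points and apart from the other 3 double null points, whereas for Sprr1b and Sprr2k it lies below all Bmi1 null points.

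The Sprr genes fell into separate sets. Sprr1a, Sprr1b and Sprr3 were called higher in the Bmi1 null against wild type, Sprr2d, Sprr2f, Sprr2g and Sprr4 were called lower, and Sprr2a1, Sprr2b, Sprr2e and Sprr2k were not called. Sprr1b, a cornifin that is cross-linked into the envelope, read 0.49, 0.99, -0.89 and -0.95 on the wild-type arrays, 3.16, 3.80, 3.79 and 3.70 on those of Bmi1 null and 0.60, 0.07, 0.64 and 2.26 on those of double null. Bmi1 null colonies were above both other genotypes without overlap. Sprr1b rose by 4.94 ± 0.50 relative to all genes in the Bmi1 null (limma adjusted p = 2.08e-05), and between the mutants it fell by 2.72 ± 0.50 in double null colonies (limma adjusted p = 0.00685). With the slide as a block the latter change was -2.87 (limma adjusted p = 0.0640), and it was -3.16 within slide 2 and -2.36 within slide 4.

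Sprr1a, the other cornifin, read 3.87, 3.89, 1.14 and 1.01 on the wild-type arrays, 6.68, 7.03, 7.32 and 7.67 on those of Bmi1 null and 4.77, 5.22, 4.09 and 6.63 on those of double null. The genotypes did not overlap, with wild type lowest and Bmi1 null highest. Relative to all genes it rose by 5.93 ± 0.70 with Bmi1 null (limma adjusted p = 4.50e-05) and by 4.11 ± 0.70 with double null (limma adjusted p = 0.00293). The latter call ended with the slide as a block (limma adjusted p = 0.225) and with the authors' values (0.0510), and the difference between the mutants (-1.99 ± 0.70) had a limma adjusted p of 0.111. Sprr3, a family member of the oral and oesophageal lining, read 5.11, 5.61, 2.65 and 2.29 on the wild-type arrays, 6.93, 7.15, 7.81 and 8.04 on those of Bmi1 null and 5.95, 6.24, 5.30 and 7.65 on those of double null. Wild-type replicates 1 and 3 were more than 2 log2 units above replicates 4 and 5 for both Sprr1a and Sprr3. Sprr3 rose by 4.80 ± 0.71 relative to all genes with Bmi1 null (limma adjusted p = 0.000474) and by 3.77 ± 0.71 with double null (limma adjusted p = 0.00747). Its double null and wild-type arrays overlapped, and the latter call ended with the slide as a block (limma adjusted p = 0.380), with quantile normalization and with the replicate block.

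Sprr2b, Sprr2e and Sprr2k were lowest in double null colonies. Sprr2b read 4.55, 4.02, 4.39 and 4.23 on the wild-type arrays, 3.73, 3.75, 3.74 and 4.98 on those of Bmi1 null and 0.57, 2.00, 2.11 and 2.75 on those of double null. Sprr2k read 4.25, 4.32, 4.08 and 3.91 on the wild-type arrays, 3.31, 2.91, 3.25 and 4.36 on those of Bmi1 null and 0.26, 1.13, 1.81 and 2.16 on those of double null. For both genes the double null arrays did not overlap those of the other genotypes, and replicate 4, the highest of them, was still below all Bmi1 null arrays. Between the mutants Sprr2b fell by 2.20 ± 0.42 (limma adjusted p = 0.00762), Sprr2k by 2.12 ± 0.39 (limma adjusted p = 0.00686) and Sprr2e by 1.90 ± 0.44 (limma adjusted p = 0.0207). Against wild type Sprr2k was called lower in the double null (-1.40 ± 0.39 relative to all genes, limma adjusted p = 2.38e-05). The block for slide ended the calls of Sprr2b and Sprr2k (limma adjusted p = 0.160 and 0.166). The Sprr2 genes are close copies and the probe sequences were not analysed here, so signal shared between them cannot be told apart. Sprr2a1 had 2 probes that disagreed, with a change between the mutants of 0.07 on the brighter and -2.38 on the dimmer.

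Sprr2d, Sprr2f and Sprr4 were highest in wild type. Sprr2d read -1.05, -1.07, -1.45 and -1.73 on the wild-type arrays, -4.68, -5.15, -4.18 and -4.73 on those of Bmi1 null and -5.02, -4.87, -4.84 and -4.55 on those of double null. Its call was lower in both mutants (-2.12 ± 0.24 and -2.09 ± 0.24 relative to all genes, limma adjusted p = 1.15e-07 and 7.44e-08), with a 95% interval of -0.65 to 0.38 between the mutants. Sprr2f read -1.60, -2.15, -1.87 and -2.39 on the wild-type arrays, -4.89, -3.78, -4.55 and -5.38 on those of Bmi1 null and -5.00, -4.65, -4.93 and -5.39 on those of double null. It followed Sprr2d, at -1.41 ± 0.31 with Bmi1 null and -1.58 ± 0.31 with double null relative to all genes (limma adjusted p = 6.80e-06 and 2.21e-06). The size depended on processing. With the authors' values the fitted Bmi1 null change was -0.97 for Sprr2d (here -3.36) and -0.61 for Sprr2f (here -2.65), both still called lower. The double null call of Sprr2f ended with normexp correction (-0.91, limma adjusted p = 0.0542). Sprr4 stood at 0.50, 0.67, 0.68 and 0.24 in wild type and at -1.57, -1.18, -0.97 and -0.50 in Bmi1 null colonies. In double null colonies Sprr4 read -4.03, -4.07 and -1.62 in replicates 2, 3 and 4, and its spot was an outlier in replicate 1 and was left out. It fell in double null colonies by 2.36 ± 0.51 against wild type relative to all genes (limma adjusted p = 2.69e-05) and by 2.18 ± 0.51 against Bmi1 null (limma adjusted p = 0.0243). The latter call ended in 9 of 19 alternatives, normexp correction (-0.62) among them.

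The short motifs TGANTCA and TATAAA stood in most Sprr and single-copy promoters, but in few Lce promoters and in few promoters of all genes. The 200 bases before the start are given for genes with and without these motifs: Lor and Rptn, then Sprr1b, Sprr2b and Sprr2k, which fell between the mutants, and Lce1c and Lce3c, whose levels followed those of Lor and Rptn in the double null colonies. They are RefSeq sequences of build GRCm38.p6, 5′ to 3′ on the strand of the gene, and capitals mark TGANTCA (a binding motif of AP-1) and TATAAA (the TATA box).
Lor (chr3:92083143-92083342, minus strand): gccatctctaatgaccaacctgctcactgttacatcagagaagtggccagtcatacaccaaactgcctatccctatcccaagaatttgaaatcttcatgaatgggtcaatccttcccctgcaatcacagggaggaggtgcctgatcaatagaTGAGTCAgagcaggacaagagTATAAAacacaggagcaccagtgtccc
Rptn (chr3:93393499-93393698, plus strand): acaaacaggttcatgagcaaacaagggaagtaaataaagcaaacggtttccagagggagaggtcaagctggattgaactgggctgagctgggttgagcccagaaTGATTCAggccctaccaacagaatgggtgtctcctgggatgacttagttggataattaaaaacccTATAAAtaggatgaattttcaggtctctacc
Sprr1b (chr3:92438780-92438979, minus strand): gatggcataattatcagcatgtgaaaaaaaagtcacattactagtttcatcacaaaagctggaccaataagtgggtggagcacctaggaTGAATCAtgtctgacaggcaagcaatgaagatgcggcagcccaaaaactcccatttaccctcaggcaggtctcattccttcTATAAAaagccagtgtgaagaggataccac
Sprr2b (chr3:92316505-92316704, plus strand): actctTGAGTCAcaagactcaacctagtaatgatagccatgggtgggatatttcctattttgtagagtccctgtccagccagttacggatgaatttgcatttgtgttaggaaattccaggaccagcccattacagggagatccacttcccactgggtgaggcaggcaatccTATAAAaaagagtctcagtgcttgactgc
Sprr2k (chr3:92432382-92432581, plus strand): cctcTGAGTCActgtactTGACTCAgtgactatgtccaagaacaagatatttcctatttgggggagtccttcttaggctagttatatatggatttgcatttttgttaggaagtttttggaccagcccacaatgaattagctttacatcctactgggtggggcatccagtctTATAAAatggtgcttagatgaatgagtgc
Lce1c (chr3:92679047-92679246, plus strand): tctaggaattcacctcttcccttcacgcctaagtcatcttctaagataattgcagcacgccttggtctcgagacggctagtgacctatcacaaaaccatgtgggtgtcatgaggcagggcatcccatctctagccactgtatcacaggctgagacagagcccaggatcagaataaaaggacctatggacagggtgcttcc
Lce3c (chr3:92944286-92944485, plus strand): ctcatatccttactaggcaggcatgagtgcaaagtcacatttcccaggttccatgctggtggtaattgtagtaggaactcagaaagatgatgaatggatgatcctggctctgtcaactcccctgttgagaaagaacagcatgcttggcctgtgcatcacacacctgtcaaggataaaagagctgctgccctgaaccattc

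Motifs were counted on both strands in windows from 250 bases before to 50 bases after the start, which the table held for 41 of the 46 genes (45 windows). TGANTCA was present in 16 of the 45 windows (35.6%), against 7.81% of 32851 windows of all genes. By subfamily it stood in 8 of 11 Sprr windows, 5 of 5 single-copy windows and 3 of 16 S100a windows. Of the 13 Lce windows 0 held it, which with an exact 95% interval allows up to 24.71%. TATAAA was present in 19 of the 45 windows (42.2%, against 13.6% of all), in 9 of 11 Sprr, 3 of 5 single-copy, 5 of 16 S100a and 2 of 13 Lce windows. The Grhl motif AACCGGTT was in 0 member windows and in 0.146% of all. CACCC, part of the Klf motif, was in 60% of member windows and 57.5% of all. In the sequences shown, the TATAAA match of Lor lies 27 bases and its TGANTCA match 48 bases before the start. Sprr2k holds 2 matches to TGANTCA, 196 and 182 bases before the start, and Sprr2b holds 1 at 195. A match is a description of the letters and not a measured site, and copies of the same family share sequence. Only these exact motifs were searched, so close variants of them were not counted. In the 150 bases before the start the share with TGANTCA was 20% of member windows, against 4.24% of all, and the Sprr windows with it numbered 2 of 11, the single-copy windows 5 of 5 and the S100a windows 2 of 16.

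The Lce genes, whose products are added to the envelope late, spread widely between colonies of each mutant, but not between wild-type colonies. In Bmi1 null against wild-type colonies 4 of 14 were called higher, 2 lower and 8 were not called, where 25.2% of all genes were higher and 58.3% lower. Of the 14, 11 lay above the median of all genes. Between the mutants limma called 0 of 14, with 8 lower at an unadjusted p under 0.05 and a median change of -3.09. Of all 31064 genes 4.80% were called lower, and 4203 were lower at that unadjusted p. Lce1c, named after its values were seen, read -2.49, -2.46, -2.33 and -2.50 on the wild-type arrays, 2.95, -2.54, 0.57 and 2.78 on those of Bmi1 null and -7.68, -6.44, -6.89 and 3.82 on those of double null, where it was well above background on 1 of 4 arrays. Bmi1 null replicate 2 was near the wild-type level and double null replicate 4 was above all other arrays. The difference between the mutants was -5.24 ± 2.08 (limma adjusted p = 0.157) and rests on levels that were mostly not well above background in the double null. Without it 12 of 14 Lce genes were called lower than in Bmi1 null colonies, Lce1g and Lce1m being the exceptions. For Lce1c and Lce1a2 none of the 3 remaining arrays was well above background, so their size there has no exact value.

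Lce1f, Lce1d, Lce3f and Lce3c rose in Bmi1 null colonies. Lce1f read -3.66, -5.01, -3.71 and -3.31 on the wild-type arrays, 1.64, 0.39, 0.49 and 2.26 on those of Bmi1 null and -4.16, -3.87, -4.45 and 2.54 on those of double null. Lce1d read -2.97, -4.23, -3.16 and -3.64 on the wild-type arrays, 1.69, -0.57, 1.20 and 1.88 on those of Bmi1 null and -4.84, -5.89, -4.55 and 2.45 on those of double null. In both genes the Bmi1 null arrays cleared all wild-type arrays and double null replicate 4 was the highest array of the 12. Relative to all genes the rise in Bmi1 null colonies was 6.36 ± 1.24 for Lce1f (limma adjusted p = 0.00186) and 5.79 ± 1.39 for Lce1d (limma adjusted p = 0.00852). Lce3c read 0.64, 0.61, 0.53 and 0.14 on the wild-type arrays, 3.17, 2.18, 3.50 and 4.42 on those of Bmi1 null and -0.47, -0.82, -0.42 and 4.67 on those of double null. Lce3f read -2.66, -3.04, -2.65 and -3.06 on the wild-type arrays, -0.04, -0.13, 1.08 and 1.08 on those of Bmi1 null and -4.15, -4.24, -5.95 and 1.93 on those of double null. Double null replicates 1 to 3 were below the wild-type arrays for both Lce3 genes. The rise in Bmi1 null colonies was 4.08 ± 0.97 for Lce3c (limma adjusted p = 0.0160) and 4.59 ± 1.22 for Lce3f (limma adjusted p = 0.0219), and both calls ended with the slide as a block (limma adjusted p = 0.0680 and 0.0954).

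In double null against wild-type colonies 0 Lce genes were called higher, at an unadjusted p under 0.05 as well, and 3 were called lower. Of all genes 25.5% were called higher and 59.9% lower. Lce1l read 0.51, 0.03, 0.58 and 0.06 on the wild-type arrays, -1.91, -2.66, -1.77 and -1.68 on those of Bmi1 null and -2.76, -3.24, -3.60 and -0.88 on those of double null. Every mutant array was below wild type, replicate 4 included, and the double null change was -1.51 ± 0.48 relative to all genes (limma adjusted p = 8.88e-05). Lce1m read 0.77, 0.23, 0.91 and 0.70 on the wild-type arrays, -0.10, -2.55, -0.42 and 0.07 on those of Bmi1 null and -1.19, -3.21, -0.48 and 0.27 on those of double null. Its double null change of -0.40 ± 0.69 relative to all genes (limma adjusted p = 0.0261) lost its call in 7 of 18 alternatives. Lce1g read 0.58, 0.71, 0.55 and 0.30 on the wild-type arrays, -1.61, -0.52, -1.01 and -1.25 on those of Bmi1 null and -1.63, -0.93, -1.13 and -1.60 on those of double null. It was called lower in both mutants (-0.39 ± 0.25 and -0.45 ± 0.25 relative to all genes, limma adjusted p = 6.16e-05 and 1.85e-05), but its dimmer probe went the other way in Bmi1 null colonies, with a fitted change of 2.13 ± 1.24 against -1.63 ± 0.25. On that dimmer probe Lce1g read -3.91, -4.02, -3.43 and 3.0 in the double null colonies, the pattern of the other Lce1 genes. The Lce1 genes are close copies, and signal shared between them cannot be told apart here.

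Colonies of the other mutant differed as well. Bmi1 null replicate 2 was the lowest of the 4 Bmi1 null colonies in 13 of 14 Lce genes, by a median of 2.27 log2 units below the other 3 (median difference -2.27), but in 4 of 11 Sprr, 2 of 14 S100a and 1 of 5 single-copy genes. Over all genes tested it was the lowest in 23.3%. Summed over the Lce genes, the level was 3.51 to 3.79 for wild type, 6.07, 3.88, 5.01 and 6.33 on the Bmi1 null arrays and 1.50, 1.36, 1.72 and 7.53 on the double null arrays. The summed Sprr level was 6.08 to 7.07 in wild type, 8.10 to 9.15 for Bmi1 null and 6.65, 7.07, 6.30 and 8.37 on the double null arrays, so replicate 4 stood apart there by less.

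**Figure D3:**
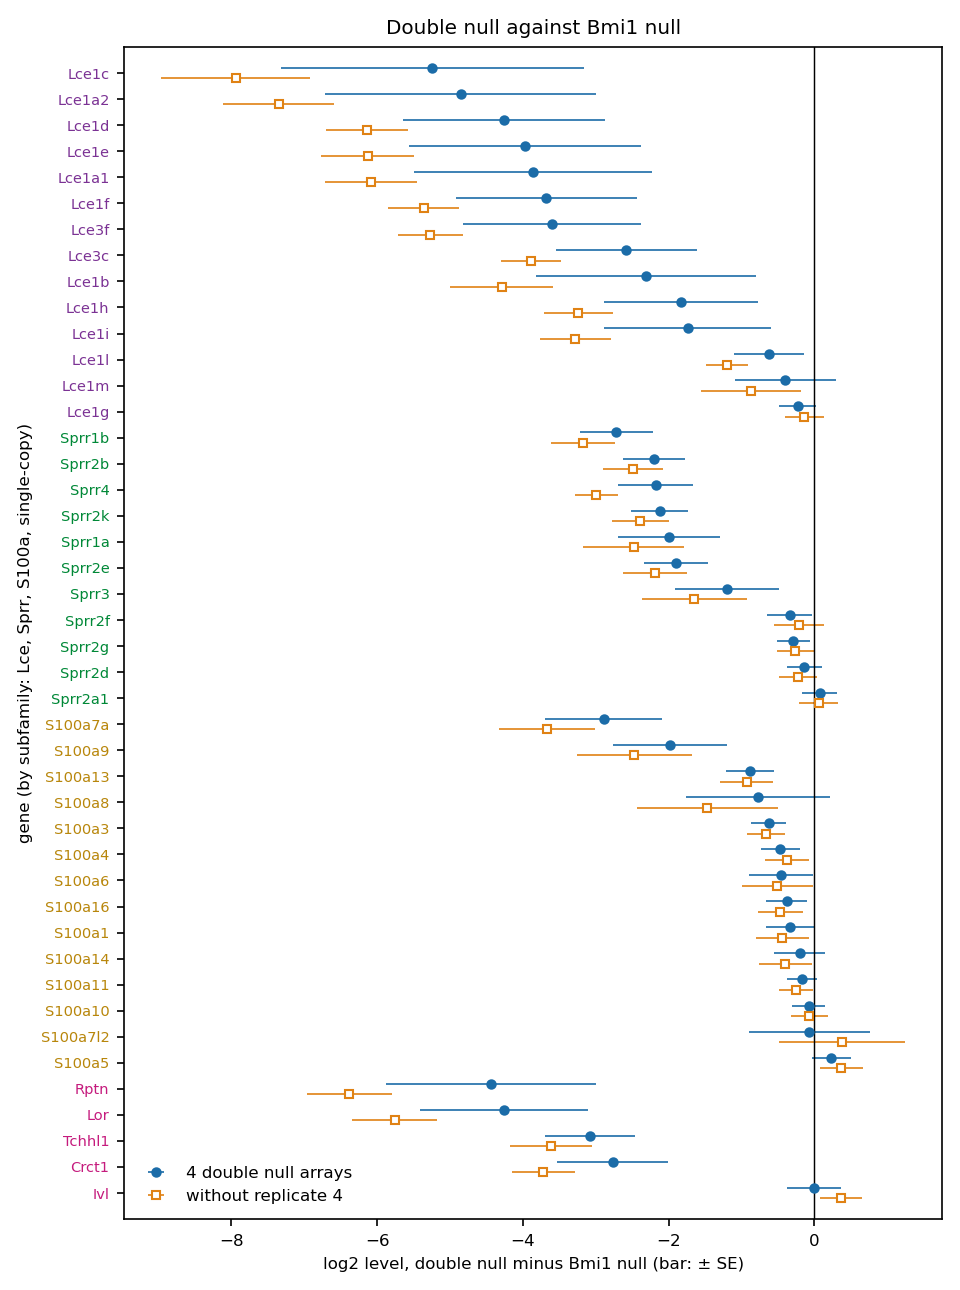
Log2 difference of double null from Bmi1 null colonies for each of the 44 tested genes, by subfamily, with bars of ± SE. Filled circles use all 4 double null arrays and open squares leave out replicate 4. The squares of most Lce genes, Rptn, Lor and Crct1 lie further to the left and have shorter bars, whereas most S100a genes lie near 0 in both.

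Most S100a genes had small differences between the mutants, and several were high in both. Of 14 tested, 8 were called higher, 2 lower and 4 were not called with Bmi1 null against wild type. With double null 6 were higher, 2 lower and 6 not called. Of all genes 25.2% and 25.5% were called higher and 58.3% and 59.9% lower in these comparisons. Between the mutants 1 of 14, S100a7a, was called lower and 13 were not called, with a median change of -0.42, where 4.80% of all genes were called lower. S100a6, S100a10, S100a11, S100a13, S100a14 and S100a16 were called higher in both mutants, with every mutant array above every wild-type array. S100a11, a calcium-binding protein found in cornified envelopes, read 3.76, 3.89, 3.39 and 3.81 on the wild-type arrays, 6.20, 5.97, 6.65 and 6.58 on those of Bmi1 null and 5.90, 6.18, 6.21 and 6.42 on those of double null. The mutants overlapped, and the 95% interval of their difference was -0.63 to 0.28 log2 units. Relative to all genes S100a11 rose by 3.88 ± 0.21 with Bmi1 null (limma adjusted p = 2.90e-07) and by 3.87 ± 0.21 with double null (limma adjusted p = 4.26e-07).

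S100a10, which pairs with annexin A2 at the cell membrane, read 2.30, 3.09, 2.36 and 3.11 on the wild-type arrays, 4.91, 5.14, 5.33 and 5.30 on those of Bmi1 null and 4.91, 5.16, 5.25 and 5.05 on those of double null. Its rise was 3.70 ± 0.23 and 3.78 ± 0.23 relative to all genes (limma adjusted p = 8.75e-07 and 9.78e-07), and the 95% interval between the mutants was -0.57 to 0.41. S100a14 read 2.13, 3.08, 1.19 and 2.39 on the wild-type arrays, 5.03, 5.37, 5.14 and 4.99 on those of Bmi1 null and 4.53, 5.08, 4.58 and 5.52 on those of double null. It shared the pattern of S100a10, with a rise of 4.17 ± 0.35 and 4.13 ± 0.35 (limma adjusted p = 7.21e-06 and 1.16e-05) and an interval of -0.97 to 0.56 between the mutants. S100a6 (calcyclin) read 2.67, 4.45, 2.41 and 2.82 on the wild-type arrays, 5.02, 5.50, 6.56 and 6.42 on those of Bmi1 null and 5.55, 5.10, 5.44 and 5.57 on those of double null. Wild-type replicate 3 was the highest of its group for S100a6, S100a14 and S100a16 but below every mutant array. S100a6 rose by 4.03 ± 0.44 and 3.73 ± 0.44 relative to all genes (limma adjusted p = 7.04e-05 and 0.000284). The size of these rises depended on processing. For Bmi1 null the fitted change of S100a10 was 2.46 here, 3.39 with median scaling and 1.28 with the authors' values. In the same order it was 2.64, 3.57 and 1.61 for S100a11 and 2.93, 3.87 and 1.89 for S100a14. For S100a6 it was 2.79, 3.72 and 2.01, and all of these were called higher.

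S100a7a, the mouse relative of psoriasin, read -1.90, -1.42, -3.13 and -3.07 on the wild-type arrays, -0.21, 1.18, 1.01 and 0.56 on those of Bmi1 null and -2.40, -1.90, -4.81 and 0.09 on those of double null. Double null replicate 4 reached the Bmi1 null range and the other 3 did not. S100a7a rose by 4.25 ± 0.80 relative to all genes with Bmi1 null (limma adjusted p = 0.00346), and between the mutants it fell by 2.89 ± 0.80 (limma adjusted p = 0.0456), a call that ended in 13 of 18 alternatives. S100a7l2 went the other way, with levels of 0.24, -0.01, 0.05 and 0.03 for wild type, -7.02, -3.64, -6.12 and -7.25 for Bmi1 null and -3.78, -7.27, -5.82 and -7.45 for double null. It was well above background on each of the 4 wild-type arrays but on 1 array of each mutant, so most mutant levels were not well above background. It passed the filter through wild type alone, so no test is given, though it is among the members counted as lower. The olfactory receptor probes given above moved with it, and their part in the result was not tested.

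S100a8 and S100a9, the subunits of calprotectin made by neutrophils and by activated keratinocytes, varied from colony to colony. S100a8 read -3.07, -3.61, -3.52 and -3.68 on the wild-type arrays, -3.50, -1.06, -0.74 and -2.84 on those of Bmi1 null and -5.44, -0.68, -4.40 and -0.71 on those of double null. S100a9 read -0.87, -0.21, -1.23 and -1.02 on the wild-type arrays, -1.47, 1.42, 1.65 and 0.21 on those of Bmi1 null and -2.36, -0.25, -3.45 and -0.04 on those of double null. In both genes Bmi1 null replicates 2 and 3 and double null replicates 2 and 4 were the high arrays of their groups. No comparison was called for either gene: the difference between the mutants was -0.77 ± 0.99 for S100a8 and -1.98 ± 0.78 for S100a9 (limma adjusted p = 0.717 and 0.156). With median scaling, quantile normalization and the authors' values both were called higher in the Bmi1 null against wild type. Of 12 neutrophil and myeloid markers 10 were measured, and their summed level was 3.0 to 3.33 for wild type, -0.22 to 0.47 for Bmi1 null and -0.31 to 0.18 for double null. Of these 10 limma called 10 lower in each mutant against wild type and 0 between the mutants (1 lower at an unadjusted p under 0.05). Against wild type 58.3% (Bmi1 null) and 59.9% (double null) of all genes were called lower. The part of these markers in the result was not tested. Csf3r, the receptor of a neutrophil growth factor, was well above background on 0 of 8 mutant arrays. Itgam, Cxcr2, Mpo, Lyz2, Tyrobp and Csf1r were well above background on all 8, and Ptprc, Elane and Adgre1 on some of them. Csf3r and Adgre1 passed the filter through wild type alone, so their lower calls were largely set by the filter.

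Of the other S100a genes, S100a3, a hair cuticle protein, was called higher in Bmi1 null colonies (2.24 ± 0.24 relative to all genes, limma adjusted p = 0.00164) and not in double null colonies. S100a5 was called lower in both mutants (-1.25 ± 0.27 and -0.85 ± 0.27, limma adjusted p = 3.39e-06 and 6.74e-06). S100a1 and S100a4 stood at 1.51 ± 0.33 and 1.50 ± 0.27 relative to all genes with Bmi1 null and were called in no comparison.

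**Figure D4:**
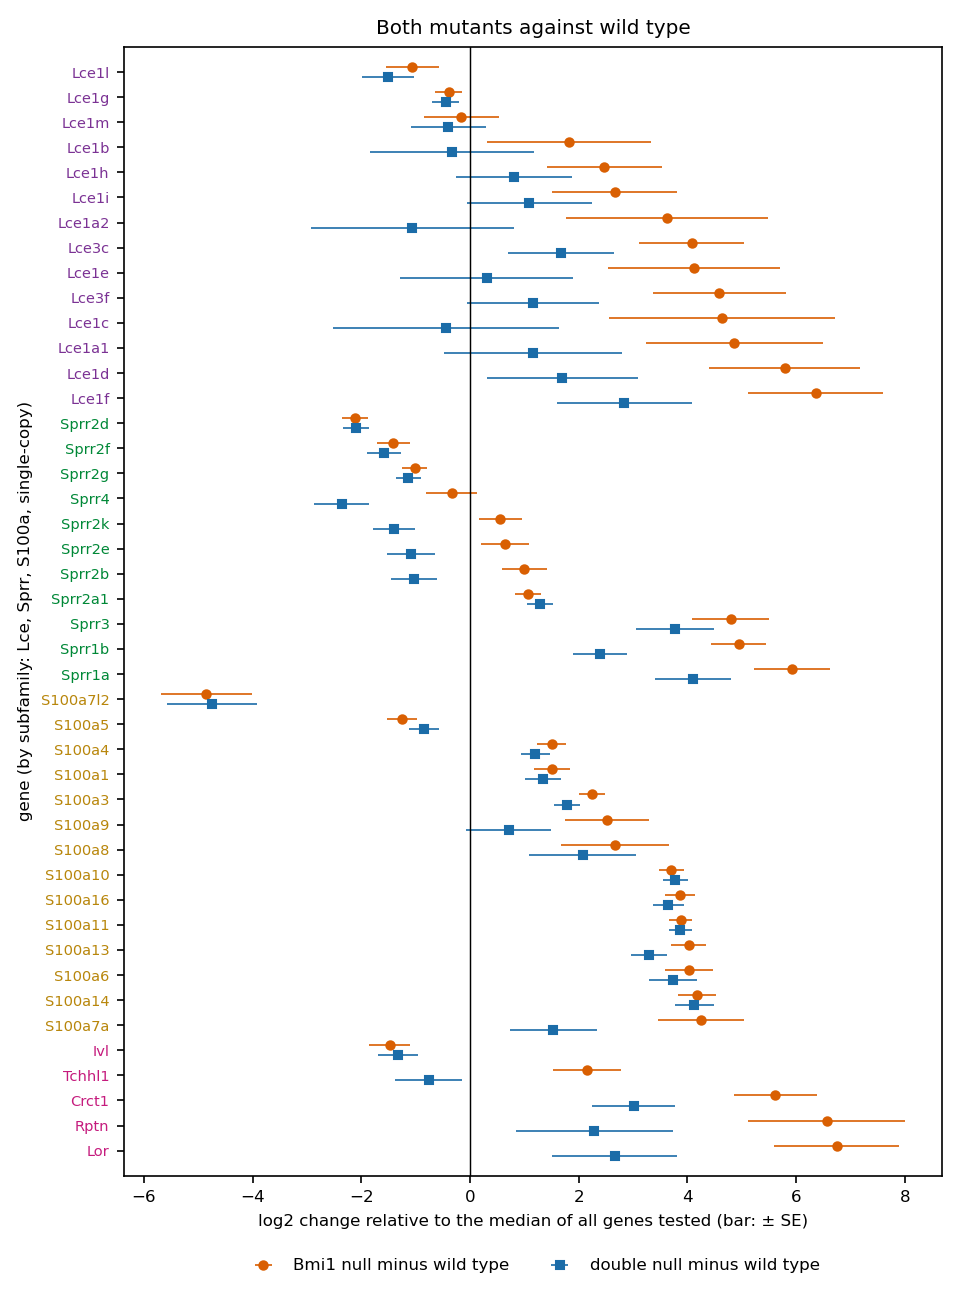
Log2 change of each mutant from wild type, relative to the median of all genes tested, for the 44 genes by subfamily, with bars of ± SE. Circles are Bmi1 null and squares are double null colonies, and both share the wild-type arrays. Circles and squares lie close together for S100a10, S100a11, S100a14, Sprr2d and Ivl, and apart for Lor, Rptn and most Lce genes.

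Genes that work with the complex were counted in the same fit. Of 24 tested partners of the cornified envelope outside the complex, such as transglutaminases, desmosomal proteins and skin proteases, 19 were called higher and 1 lower with Bmi1 null against wild type, and 13 higher and 1 lower with double null. Of all genes 25.2% and 25.5% were called higher and 58.3% and 59.9% lower in these comparisons. Between the mutants 0 were called higher, 0 also at an unadjusted p under 0.05, and 3 lower by limma: Cdsn (corneodesmosin), Klk7, a protease of shedding skin, and Alox12b, a lipoxygenase of the lipid barrier. Cdsn read 3.30, 2.57, 2.85 and 3.28 on the Bmi1 null and -1.29, -1.57, -2.04 and 2.09 on the double null arrays (limma adjusted p = 0.00683). Klk7 read 4.26, 4.12, 4.64 and 4.83 on the Bmi1 null and -0.40, -0.63, -0.95 and 5.14 on the double null arrays (limma adjusted p = 0.0478). In both, as for Lor, replicate 4 stood above the other double null arrays. It lay above all Bmi1 null arrays for Klk7 but below all of them for Cdsn. Of 8 other genes of the same stretch of chromosome, 0 were called higher and 2 lower between the mutants, namely Pglyrp3, a peptidoglycan recognition protein (limma adjusted p = 0.0169), and Them5 (limma adjusted p = 0.0335). Kprp, a keratinocyte proline-rich protein chosen after its values were seen, read 4.40, 2.67, 3.33 and 4.84 on the Bmi1 null and 0.20, -0.44, -1.76 and 4.42 on the double null arrays, with a limma adjusted p of 0.0727 between them.

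Keratins and regulators were counted in the same way, where 2.75% of all genes were called higher and 4.80% lower between the mutants. Of 10 suprabasal keratins 0 were called between the mutants by limma (1 higher at an unadjusted p under 0.05), and of 8 basal keratins and adhesion genes 1, Col17a1, was called lower (limma adjusted p = 0.0105). Among the 29 regulators of the complex tested, Fos was called higher in the double null (limma adjusted p = 0.0185), and Fosl1 and Notch1 were called lower (limma adjusted p = 0.00545 and 0.0401), Notch1 being named after its value was seen. Fos and Fosl1 encode AP-1 subunits, and Notch1 acts in the switch from division to differentiation in skin. Against wild type 18 regulators were higher and 5 lower with Bmi1 null, where 25.2% of all genes were higher and 58.3% lower. With double null 22 regulators were higher and 6 lower, where 25.5% of all genes were higher and 59.9% lower. Of 13 partners and receptors of S100 proteins, 1 was called higher between the mutants (Anxa6, an annexin, 1.81 ± 0.27, limma adjusted p = 0.00232) and 1 lower (Cd36, a scavenger receptor, -1.36 ± 0.36, limma adjusted p = 0.0381).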

How the data were processed

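RNA of 12 colonies was hybridised to 1-colour Agilent arrays. The deposited intensity values are Agilent processed signals, already background-subtracted by Feature Extraction 10.7.3.1 with protocol GE1_107_Sep09 and annotated on mm9, per the file headers. The authors also deposited a table of processed log2 values, whose normalization is not stated in the material used here, and which served as an alternative.

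Here log2 processed signal minus the 75th percentile of the array was used, without control spots and outlier spots. Probes were named through their accessions with a RefSeq gene table (24844 of 41174 probes). A probe was kept when well above background on at least 3 of 4 arrays of a genotype, and the brightest probe stood for a gene. limma 3.58.1 in R 4.3.3 was fitted to all 12 arrays (9 residual degrees of freedom), with Benjamini-Hochberg adjustment. The fit was tested on simulated data.

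Per-array values are given for up to 4 called genes per subfamily and comparison with the largest change, and always for Lor, Ivl, Sprr1a, Sprr1b, S100a8 and S100a9. From each companion list up to 3 called genes were named, and 1 result is not reported here. Members and lists were chosen with earlier results of these data known.

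Alternatives were median and quantile scaling, normexp (offset 50, on the median signal because no mean signal was used here), the authors' values, other filters, a floor at background, the mean of probes, the slide or the replicate number as a block, the 8 mutant arrays alone, within-slide values, a shorter promoter window, and leaving out each array.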

Additional observations from a re-analysis of the deposited data

Results flagged for a closer look

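In 13 of 131 groups of 4 arrays, 1 array stood apart from the other 3 by Dixon's criterion. Chance gives about 5% of groups. In 9 of the 13 the array was double null replicate 4, above the others, in Lce genes, where its gap to the next array was 8.11 log2 units for Lce1a1, 9.46 for Lce1a2, 7.52 for Lce1b, 10.26 for Lce1c, 6.99 for Lce1d, 6.41 for Lce1f, 5.52 for Lce1h, 5.84 for Lce1i and 5.09 for Lce3c. For Lce1a2 and Lce1c the other 3 double null arrays were not well above background, so those gaps depend on how dim signals are read. Over all genes that array stood above its group in this way in 0.659%. Bmi1 null replicate 3 was above its group by 1.34 for S100a13, and double null replicate 1 was below its group by 0.41 for the same gene. Bmi1 null replicate 1 was below its group by 0.54 for Sprr1b, and Bmi1 null replicate 4 above it by 1.23 for Sprr2b.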

How the results depend on the processing

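Changes here are fitted log2 values. The count of members lower between the mutants was 4 with normexp correction, 0 with the slide as a block, 3 with the mutant arrays alone and 4 to 22 when 1 array was left out. Members lower in Bmi1 null against wild type numbered 14 with quantile normalization and 14 with the authors' values. For double null against wild type, the higher members numbered 14 with median scaling, and the lower ones 13 to 24 with 1 array left out. Lce1g turned to 1.74 (normexp) and 0.25 (mean of its probes) with Bmi1 null and to 0.36 (normexp) with double null. Tchhl1 with double null turned to 0.58 (quantile) and 0.09 (authors' values), and Sprr3 to -0.31 within slide 2. Leaving out 1 array, double null against wild type ranged from -1.59 to 1.19 for Lce1d and from -1.05 to 0.78 for Lce3c. The TGANTCA share was 20% in the shorter window. The causes were not tested. With the replicate number as a block, 4 members were lower between the mutants, and 10 same-numbered pairs correlated at -0.148 to 0.215, with 3 over 0.1, so the numbers were not taken as pairs. Levels of spots not well above background are limited by their signal.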

Other observations

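Genes outside the complex that make up the cornified layer also stood high in double null replicate 4, a description made after the values were seen. Against the median of the other 3 double null colonies, Krt1, a keratin of the upper epidermal layers, was 8.07 log2 units higher in that colony, its partner Krt10 was 6.34 higher, and Krt76, a keratin of the palate and gums, was 8.91 higher. Klk5, a protease of shedding skin, was 6.51 higher, and Klk7, another such protease, was 5.78 higher. Of 22 partners of the envelope measured on all 4 arrays, 9 were over 2 log2 units higher there, beside 4 of 10 suprabasal keratins, 1 of 8 basal keratins and adhesion genes and 0 of 29 regulators. Col3a1, a fibroblast collagen, was 4.12 higher and Col1a2 3.62 higher in the same colony, and 5 of 12 mesenchymal markers were over 2 higher. Their part in the result was not tested.

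Among markers of dental epithelial stem cells and early lineage, 3 of 9 were called higher and 0 lower between the mutants by limma. At an unadjusted p under 0.05, 4 were higher and 0 lower. Of all genes 2.75% were called higher and 4.80% lower by limma. Their summed level was 1.62 to 1.81 for wild type, 1.52 to 1.71 for Bmi1 null and 2.65 to 5.05 for double null. The largest part of the double null sum on each array was Igfbp5, a binding protein of insulin-like growth factors, chosen after its values were seen. Igfbp5 read 1.28, 3.50, 1.73 and 4.88 in double null colonies and -2.33 to -1.79 for Bmi1 null. No other of the 9 read above 0.27 on a double null array. No ameloblast marker of 6 was called between the mutants, with 1 lower at an unadjusted p under 0.05.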
